A study of Bos taurus with 16 samples.

Results

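The vitamin D and mineral balance genes S100G, VDR and STC1 were followed in bovine kidney RNA before and after linear amplification. They were taken as every spot of the array whose listed gene symbol was S100G, VDR or STC1, which gave 12 spots of 6 cDNA clones for 3 genes, among 16896 spots of 8448 features. S100G had 2 clones, called S100G-a (spots 163 and 8611) and S100G-b (spots 422 and 8870). VDR had 1 clone (spots 253 and 8701). STC1 had 3 clones, STC1-a (spots 3887 and 12335), STC1-b (spots 7221 and 15669) and STC1-c (spots 7401 and 15849). All 6 clones could be tested, among 5537 features with a listed gene. Which stretch of the transcript each clone covers was not examined here.

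Kidney RNA was labelled and hybridised together with a common reference standard RNA on a custom bovine cDNA microarray, on which each clone is printed at 2 spots and read in 2 colours. Amplified kidney RNA had gone through 1, 2 or 3 linear amplification rounds, in which RNA is copied to cDNA and transcribed back to RNA, and round 0 was unamplified total RNA. The reference standard on every array underwent 2 rounds. Each of the 4 rounds had 2 kidney RNAs, replicate 1 and replicate K, and each RNA was hybridised on 2 arrays, with kidney in Cy3 on one and in Cy5 on the other, giving 16 arrays of 8 RNAs. Neither the animal behind each replicate nor the tissue behind the reference standard is stated, so a p-value here speaks of the spread among the 8 RNAs alone, which may be technical.

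Vitamin D acts through its active form, calcitriol, which the proximal tubule of the kidney makes and which binds the vitamin D receptor, VDR. The receptor pairs with a retinoid X receptor on DNA and raises genes of calcium uptake and reabsorption, among them S100G, a small cytosolic protein of the S100 family that binds calcium and carries it across epithelial cells. STC1, stanniocalcin, is a hormone first described in fish as a factor that lowers calcium, and in mammals it is made in several tissues, the kidney included, and acts locally on calcium and phosphate handling.

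All values below are log2 ratios of kidney over the reference standard, with each array centred on the median of the features with a listed gene, so that 0 is that median and each unit is a doubling. The sign rests on a likely reading of the deposited ratios as Cy5 over Cy3: read so, the 3 kidney tubule marker features on the array (ENPEP, AQP1 and GPX3) had a median of 5.43 at round 0 with kidney in Cy5 and of 5.72 with kidney in Cy3, all 3 above 0 in both. One protocol text puts the kidney sample in Cy5 on every array, while titles and dye fields give the swap; the deposited values of the 2 arrays of an RNA correlated at -0.60 to -0.19 over features, and the swap was followed. Having set the direction, these markers do not test it. GPX3, a secreted peroxidase of the proximal tubule, stood at 1.57 at round 3, against 6.62 at round 0. ENPEP stood at 5.22 at round 3, against 5.58 at round 0, and AQP1 at 4.16, against 4.44. Neither ENPEP nor AQP1 was called different from round 0 at any round. Of 8 stroma marker features 0 or 1 were called above the reference at any round and 3 or 4 below it, and of 5 immune marker features 1 was above and 4 were below at round 0, with 0 above and 3 below at each amplified round. Of all features, 16.6 to 19.6% were called above the reference and 18.4 to 20.9% below it at the 4 rounds. Each array gave a ratio at 14165 to 16057 of its 16896 spots. In bulk RNA, fewer cells of a type and less RNA per cell cannot be told apart.

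S100G, the calcium carrier, was above the reference throughout. Both clones stood above the reference on every array that gave a value, 16 of 16 arrays for S100G-a and 15 of 15 for S100G-b, and both were called at each round by limma with Benjamini-Hochberg adjustment over the 5537 features at a threshold of 0.05. S100G-b ranked 9 from the top of the 5537 features at round 0, 8 at round 1, 4 at round 2 and 2 at round 3. S100G-a ranked between 53 and 65 from the top. With the ratios read the other way these are ranks from the bottom.

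In replicates 1 and K, S100G-b had log2 ratios of 5.02 and 5.16 at round 0, 4.61 and 4.27 at round 1, 4.70 and 4.36 at round 2, and 4.50 and 3.91 at round 3. The replicate K value at round 0 came from 1 array, since both spots were missing with kidney in Cy3. Every amplified RNA lay below both unamplified ones, and replicate K lay below replicate 1 in each amplified round. How many of all features separate rounds in such a way was not counted, here or for the clones below. The round means were 5.09, 4.44, 4.53 and 4.21, each with an SE of 0.20, and the adjusted p against the reference ran between 6.71e-05 and 0.000107.

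S100G-a had log2 ratios of 3.11 and 3.14 at round 0 in replicates 1 and K, 3.36 and 2.25 at round 1, 3.11 and 2.59 at round 2, and 3.00 and 2.45 at round 3. Rounds 0 and 1 overlapped, and the other amplified rounds lay just below round 0. The lowest single array of this clone, at 1.44, was round 1, replicate K, with kidney in Cy3, and the same RNA gave 3.07 with kidney in Cy5. The round means of S100G-a were 3.13, 2.81, 2.85 and 2.73, each with an SE of 0.29, and the adjusted p against the reference ran between 0.000598 and 0.00114.

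**Figure D1:**
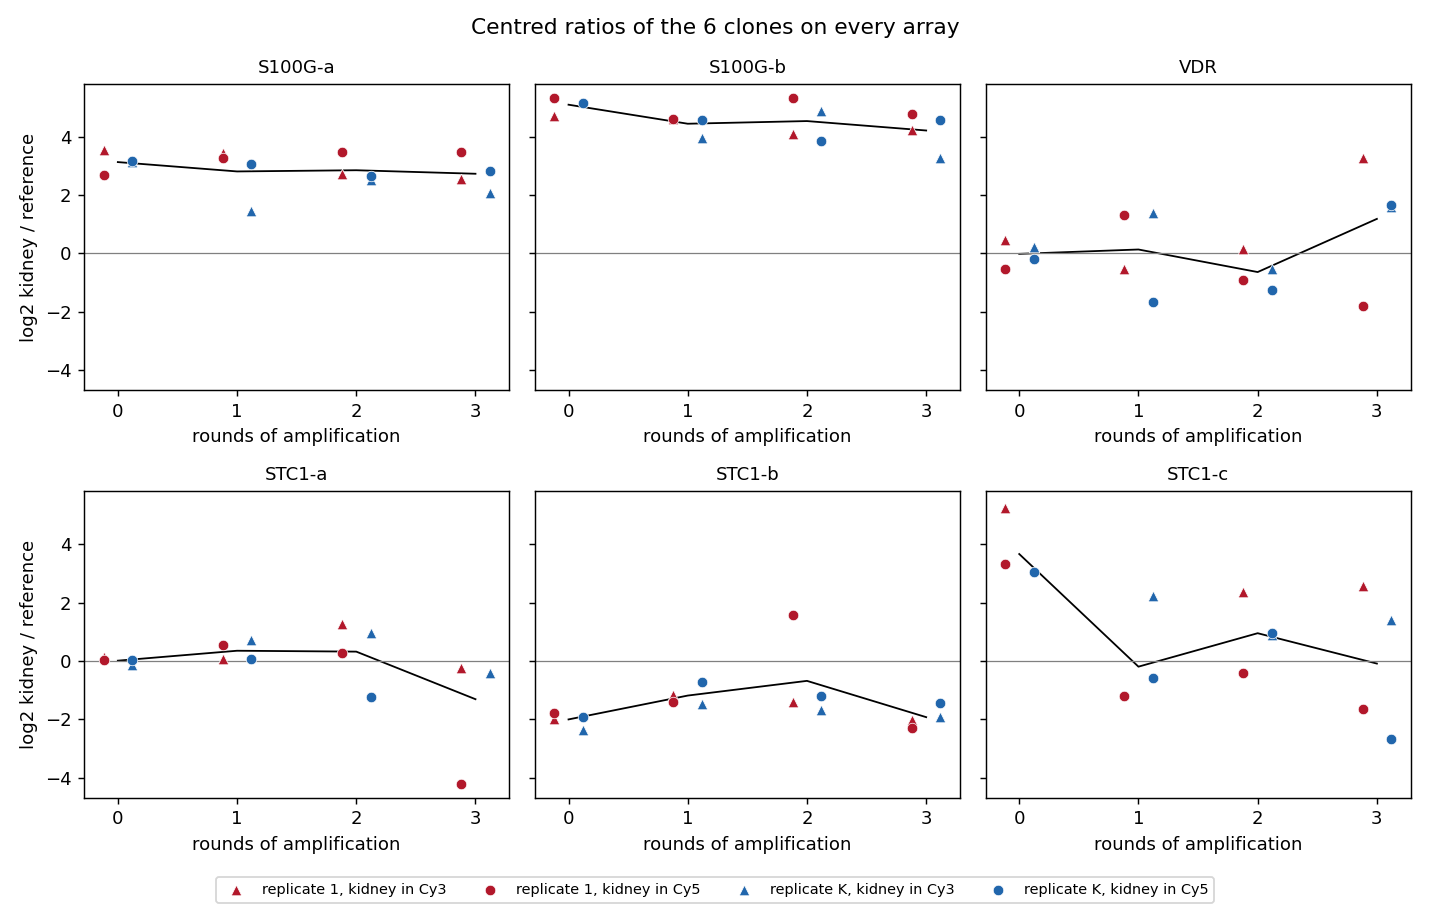
Log2 kidney over reference ratio (vertical axis, each array centred on its median) of the 6 clones by rounds of amplification (horizontal axis). Points are single arrays, triangles with kidney in Cy3 and circles with kidney in Cy5, red for replicate 1 and blue for replicate K, and the line joins the means of the 2 RNAs of each round. Both S100G clones stay above 1.43 on every array with a value, and STC1-c has its 3 highest arrays at round 0.

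No S100G difference from round 0 was called. S100G-b was 0.65 lower at round 1 than at round 0 (adjusted p = 0.174), 0.56 lower at round 2 (adjusted p = 0.236) and 0.88 lower at round 3 (SE 0.28, unadjusted p = 0.0191, adjusted p = 0.0907). The last difference had a 95% interval of -1.57 to -0.20 before adjustment. For S100G-a the differences from round 0 were -0.32, -0.28 and -0.40, with 95% intervals of -1.32 to 0.68, -1.28 to 0.72 and -1.40 to 0.60, so that neither a rise of 0.5 nor a fall of 1 lay outside what these 8 RNAs allow.

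S100G and its called relatives stood on opposite sides of the reference. The symbol rule took 7 genes whose names begin with S100, of which S100A12 was not tested. S100A10, S100A11, S100A14 and S100A2, proteins of the same family, were called below the reference at all 4 rounds, with ratios between -2.67 and -1.42. S100PBP, which binds an S100 protein and is not one itself, was called at no round, at ratios between 0.33 and 1.04. Of the 7 tested features of these genes, limma called 0 different from round 0 at each round, beside 13.3, 11.2 and 11.7% of all features at rounds 1, 2 and 3.

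VDR, the receptor, was close to the reference in unamplified kidney RNA. In replicates 1 and K its log2 ratio was -0.04 and 0.01 at round 0, 0.40 and -0.14 at round 1, -0.38 and -0.89 at round 2, and 0.73 and 1.64 at round 3. Both round 3 RNAs lay above all others and both round 2 RNAs below all others. Of 16 arrays, 8 were above 0 and 8 below it.

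The VDR ratio was called at round 3 alone, at 1.18 (SE 0.27, adjusted p = 0.0159), against adjusted p values of 0.969, 0.719 and 0.111 at rounds 0 to 2. It was not called different from round 0 at any round, with differences of 0.15 at round 1, -0.62 at round 2 and 1.20 at round 3, the last with a 95% interval of 0.29 to 2.10 before adjustment (adjusted p = 0.0859).

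The round 3 value of VDR rested on few spots and on arrays that disagreed. Replicate 1 stood at 3.27 with kidney in Cy3 and at -1.82 with kidney in Cy5, each from 1 spot, a gap of 5.09 between the dyes. Replicate K stood at 1.60 with kidney in Cy3 and at 1.67 with kidney in Cy5. The call was lost without round 3 replicate K (0.73, adjusted p = 0.161) and, at an unchanged ratio of 1.18, without the round 1, replicate 1, Cy3 array (adjusted p = 0.0547), with 16 arrays and a dye term (0.114) and with only round 3 in the fit (0.0772). The ratio was 2.44 and called on the arrays with kidney in Cy3 alone (adjusted p = 0.0104), and -0.074 on those with kidney in Cy5 alone (adjusted p = 0.962). The fit of 16 arrays takes the 2 arrays of an RNA as separate units, so its p-values do not speak of the spread among RNAs.

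The 3 clones of STC1 gave 3 different patterns. At round 0, STC1-c was above the reference at 3.66 (SE 0.54, adjusted p = 0.00315), STC1-a was at 0.01 (SE 0.42, adjusted p = 0.989) and STC1-b was below the reference at -2.00 (SE 0.35, adjusted p = 0.00606). The kidney ratio of the gene therefore had no single direction on this array, and each clone is described on its own.

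STC1-c was the only clone called different from round 0. In replicates 1 and K its log2 ratio was 4.29 and 3.03 at round 0, -1.21 and 0.82 at round 1, 0.98 and 0.92 at round 2, and 0.45 and -0.63 at round 3. The replicate K value at round 0 and the replicate 1 value at round 1 each came from 1 array. All 6 amplified RNAs lay below both unamplified RNAs, and the share of all features that do so was not counted.

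The ratio of STC1-c fell by 3.86 at round 1 relative to round 0 (SE 0.76, 95% interval -5.68 to -2.03, adjusted p = 0.0283) and by 3.75 at round 3 (SE 0.76, 95% interval -5.57 to -1.93, adjusted p = 0.0314). The round 2 difference, -2.71, was not called (SE 0.76, adjusted p = 0.0689). Its differences ranked 6 from the lowest of 5537 features at rounds 1 and 3 and 32 at round 2, which would be ranks from the highest if the ratios ran the other way. Against the reference, the clone was called at round 0 and at no amplified round (adjusted p of 0.796, 0.214 and 0.92).

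The dyes of STC1-c disagreed in level and shared the order of unamplified above amplified. With kidney in Cy5, its 6 amplified arrays ranged between -2.69 and 0.94, against 3.03 and 3.33 on the 2 arrays of round 0. With kidney in Cy3, its 5 amplified arrays with a value ranged between 0.90 and 2.56, against 5.25 on the 1 array of round 0 that gave a value. On the Cy5 arrays alone the differences from round 0 were -4.08, -2.92 and -5.35 (adjusted p of 0.0207, 0.043 and 0.0121), and on the Cy3 arrays alone the clone could not be fitted. Round 0 values carry 3 decimals throughout in the deposited table and the other arrays drop end zeros, so a difference in how those arrays were handled and the lack of amplification cannot be told apart.

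The size of the STC1-c differences held when single RNAs were left out, between -4.87 and -2.84 at round 1 and between -4.38 and -3.12 at round 3, while several of these fits missed the threshold. The round 1 difference missed it without round 0 replicate 1 (-3.23, adjusted p = 0.115), round 0 replicate K (-4.49, 0.0721), round 1 replicate 1 (-2.84, 0.0682) or either RNA of round 2 (-3.86, 0.0502). The round 3 difference missed it without round 0 replicate 1 (-3.12, 0.125), round 0 replicate K (-4.38, 0.0791), either RNA of round 2 (-3.75, 0.0545), round 3 replicate 1 (-4.30, 0.0717) or round 3 replicate K (-3.21, 0.129). It also missed it with replicates 1 and K as a block (-3.75, 0.05), with no centring (-3.45, 0.099), with only the rounds compared (-3.75, 0.0538) and with first spots only (-2.61, 0.308), and the round 1 difference did so in the fits of the rounds compared (-3.86, 0.081) and of first spots (-3.97, 0.152). The round 2 difference was called with arrays scaled to 1 median absolute deviation (-3.19, 0.026). It was also called with 16 arrays and a dye term (-3.37, 0.00398), where the 2 arrays of an RNA count as separate units. Without either RNA of round 1, which leaves 1 RNA in that round, the round 2 difference was again -2.71 and was called.

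STC1-b was the clone below the reference. In replicates 1 and K its log2 ratio was -1.88 and -2.13 at round 0, -1.29 and -1.08 at round 1, 0.09 and -1.45 at round 2, and -2.17 and -1.68 at round 3. Of 16 arrays 15 were below 0. The exception was round 2, replicate 1, with kidney in Cy5, where one spot read 3.99 and the other -0.83.

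The STC1-b ratio was called below the reference at rounds 0, 1 and 3 (adjusted p of 0.00606, 0.0387 and 0.00748) and not at round 2 (-0.68, adjusted p = 0.178). Without round 2 replicate 1 the round 2 ratio was -1.45 and was called (adjusted p = 0.0193). With single RNAs left out the ratio stayed near these values while some calls were lost: at round 0 without round 0 replicate K (-1.88, adjusted p = 0.0669) and at round 3 without round 3 replicate 1 (-1.68, 0.0741). At round 1 the call was lost without round 1 replicate 1 (-1.08, 0.195), round 1 replicate K (-1.29, 0.162), either RNA of round 0 (-1.19, 0.0616) or either RNA of round 3 (-1.19, 0.0541). On the Cy5 arrays alone the ratio was -1.84, -1.05, 0.18 and -1.86 at rounds 0 to 3, called at none (adjusted p of 0.0668, 0.253, 0.854 and 0.0587). On the Cy3 arrays alone it was -2.17, -1.32, -1.55 and -1.99, called at each (adjusted p of 0.000486, 0.00258, 0.0018 and 0.000873). With first spots only, rounds 1 and 3 were not called (-1.18 and -1.58, adjusted p of 0.158 and 0.0811). With both dyes and spots, the differences from round 0 were 0.82, 1.32 and 0.08, and none was called (adjusted p of 0.3, 0.131 and 0.929).

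STC1-a had round means near 0 up to round 2. In replicates 1 and K its log2 ratio was 0.08 and -0.06 at round 0, 0.31 and 0.39 at round 1, 0.78 and -0.14 at round 2, and -2.22 and -0.40 at round 3, the last from 1 array. Both round 3 RNAs lay below all others. Round 3 replicate 1 stood at -0.24 with kidney in Cy3 and at -4.21 with kidney in Cy5, and neither the round 3 ratio (-1.31, SE 0.42, adjusted p = 0.0551) nor its difference from round 0 (-1.32, adjusted p = 0.191) was called. The round 3 ratio was called below the reference with 16 arrays and a dye term (-1.81, adjusted p = 0.0129), where the 2 arrays of an RNA count as separate units. Each fit without an RNA of round 3 leaves 1 RNA in that round. The round 3 ratio was -2.22 and called without replicate K, and -0.40 and not called without replicate 1. On the Cy3 arrays alone the round 2 ratio was 1.11 and was called above the reference by limma (adjusted p = 0.00996). On the Cy5 arrays alone the clone could not be fitted.

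Set against the whole array, the counts of clones called were as follows. Against the reference, 4 of 6 clones were called at round 0, where 38.7% of all tested features were: 3 above it (19.6% of features) and 1 below it (19.1%). At round 1 it was 3 of 6, beside 37.8% of features, with 2 above (16.9%) and 1 below (20.9%). At round 2 the 2 S100G clones alone were called, both above, beside 35.2% of features in either direction, 16.6% above and 18.6% below. At round 3 it was 4 of 6, beside 35.1%, with 3 above (16.7%) and 1 below (18.4%).

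Against round 0 the share of features called was smaller. At round 1, 1 of 6 clones was called, STC1-c, beside 13.3% of features. At round 2 limma called 0 of 6, beside 11.2% of features. At round 3 it called 1 of 6, STC1-c again, beside 11.7%. A share of 1 in 6 clones is close to these shares of all features. At round 2, 2 clones had an unadjusted p under 0.05 in limma, as did 1710 of all 5537 features.

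Between amplified rounds no clone was called. Round 2 against round 1 had 0 of 6 clones called, beside 0% of features. Round 3 against round 1 had 0 of 6, beside 0.289% of features, and round 3 against round 2 had 0 of 6, beside 0%. At an unadjusted p under 0.05 in limma there were 0, 2 and 3 clones in these comparisons. Of all 5537 features, 569, 1176 and 401 had such an unadjusted p. VDR had the largest of these differences among the clones, 1.82 higher at round 3 than at round 2 (SE 0.38, unadjusted p = 0.00239, adjusted p = 0.498). In the moderated F test of any difference among rounds, the lowest adjusted p were 0.0574 for STC1-c and 0.0792 for VDR, beside 7.66% of features called.

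**Figure D2:**
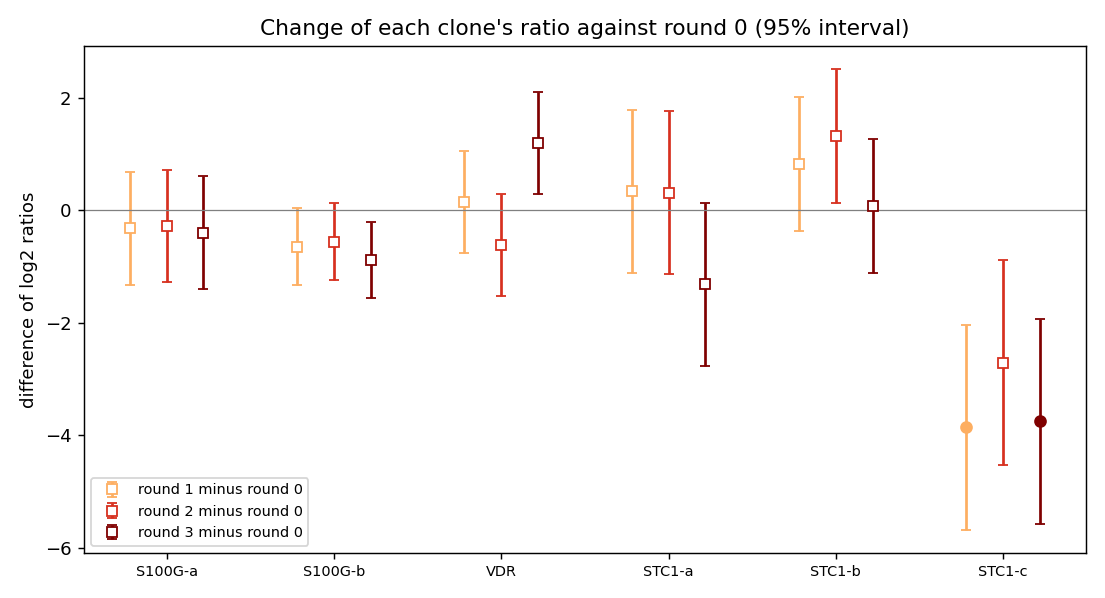
Difference of each clone's log2 ratio at rounds 1, 2 and 3 from round 0 (log2), with 95% intervals from the limma fit of 8 RNAs before adjustment; filled circles are called and open squares are not. The STC1-c differences, -3.86, -2.71 and -3.75, lie farthest below 0, and those at rounds 1 and 3 are the ones called.

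The clones differed in how many of their 32 spot readings gave a ratio. S100G-a missed 0, S100G-b 2, STC1-b 1, STC1-a 7, STC1-c 10 and VDR 11, where the median feature missed 0. A reading was also checked for whether it equals, to 3 decimals, the log2 ratio of 2 whole numbers of at most 10. No S100G reading did, while 5 did for VDR, 5 for STC1-a, 3 for STC1-b and 2 for STC1-c, and the median feature had 2.

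The gap between the 2 arrays of one RNA also differed by clone. Its median size was 0.76 for S100G-a, 0.64 for S100G-b, 1.03 for VDR, 0.66 for STC1-a, 0.46 for STC1-b and 2.79 for STC1-c, where the median over all features was 0.62. The gap of STC1-c exceeded that of 98.9% of features, and that of VDR exceeded 81.8%. The part of missing readings and of the dye in the STC1-c and VDR results was not tested beyond the single-dye values above.

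**Figure D3:**
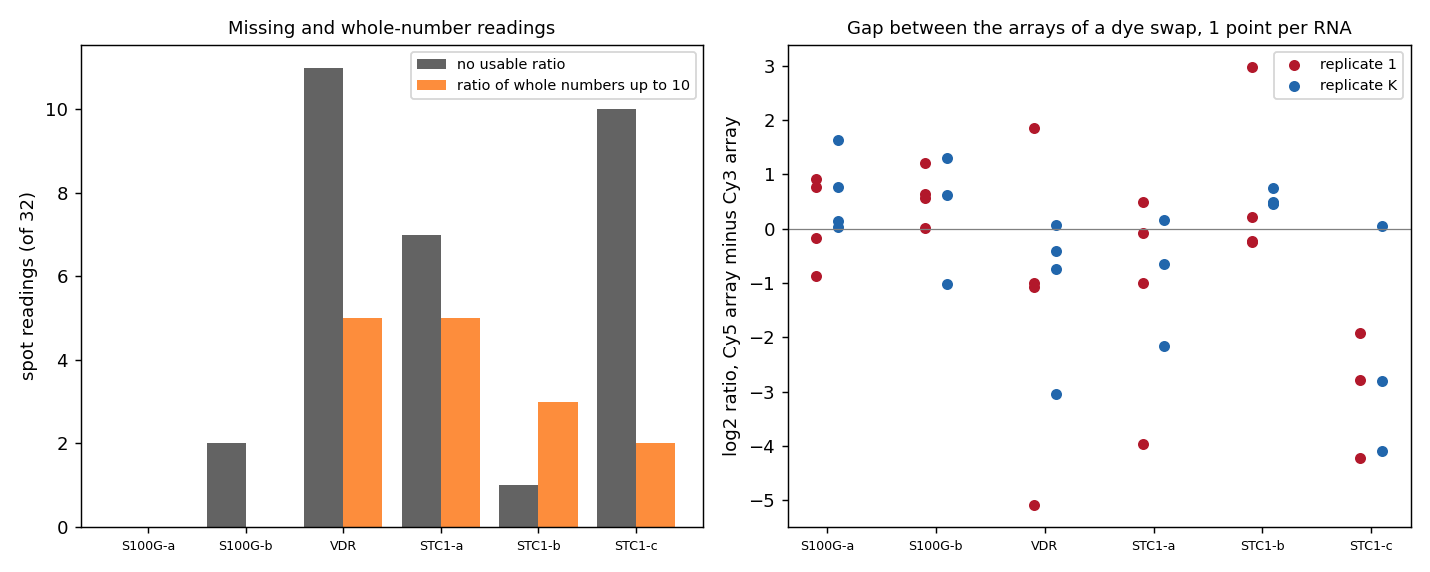
For each clone, the number of its 32 spot readings that were missing or equal to a ratio of 2 small whole numbers, and the gap between the 2 arrays of each RNA (log2 ratio with kidney in Cy5 minus that with kidney in Cy3, 1 point per RNA). VDR and STC1-c miss 11 and 10 readings and have the largest median gap sizes, 1.03 and 2.79, while S100G-a misses 0.

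Of 63 genes on 6 lists of vitamin D signalling and of calcium, phosphate, magnesium, hormone and matrix mineral handling, 17 were on the array, with 28 features. Without S100G, VDR and STC1, 14 genes with 22 features remained. Against round 0, 0 of these 22 features were called higher at any round, and 4, 3 and 3 were called lower at rounds 1, 2 and 3, where 5.42, 4.41 and 4.61% of all features were called higher and 7.87, 6.79 and 7.1% lower. Their median difference was -0.10 at round 1, 0.09 at round 2 and -0.31 at round 3, beside -0.03, 0.01 and 0.00 over all features.

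The features called lower belonged to 3 genes. MGP, matrix Gla protein, an inhibitor of soft tissue calcification, was 1.87 lower at round 1 than at round 0 (adjusted p = 0.0108), 1.38 lower at round 2 (0.0227) and 2.10 lower at round 3 (0.00819). Its ratio stayed above the reference, at 3.85, 4.34 and 3.62 at rounds 1 to 3, against 5.72 at round 0.

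SPP1, osteopontin, a secreted phosphoprotein that restrains crystal growth in urine, had 2 clones. SPP1-a was 1.37, 1.15 and 1.26 lower at rounds 1, 2 and 3 than at round 0 (adjusted p of 0.0268, 0.0411 and 0.0337). SPP1-b was 1.19 lower at round 1 (adjusted p = 0.0454) and missed the threshold at rounds 2 and 3, with differences of -1.06 and -1.04. The 2 SPP1 clones differed from round 0 in the same direction, unlike the 3 STC1 clones.

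MED1, a Mediator subunit that binds nuclear receptors such as VDR, had 3 clones. MED1-b was lower at rounds 2 and 3 (-1.11 and -1.48, adjusted p of 0.0403 and 0.0217), MED1-c at round 1 (-1.07, adjusted p = 0.0389), and MED1-a at none, with differences between -0.64 and -0.30. The clones of RXRB, a retinoid X receptor that partners VDR, were not called different from round 0 at any round, and at round 1 their differences were -0.92, 1.32 and 0.44. RXRB-a was called below the reference at rounds 1, 2 and 3 (-0.94, -1.12 and -0.79, adjusted p of 0.0166, 0.00905 and 0.0323). RXRB-b and RXRB-c were called against the reference at no round, at ratios between -1.02 and 0.59.

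For the transport genes no difference from round 0 was called. TRPV6, an epithelial calcium channel, differed from round 0 by -0.47, -0.13 and -0.26 at rounds 1, 2 and 3. SLC20A1, a sodium-phosphate cotransporter, differed by 1.45, 1.44 and 0.48, and TRPM6, a magnesium channel, by 1.00, 0.93 and 2.26 (adjusted p at round 3 of 0.0749). GNAS, the G protein subunit through which the parathyroid hormone receptor signals, had differences of 0.27, 0.94 and 1.01 in one clone and of -1.08, -1.25 and -1.02 in the other.

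**Figure D4:**
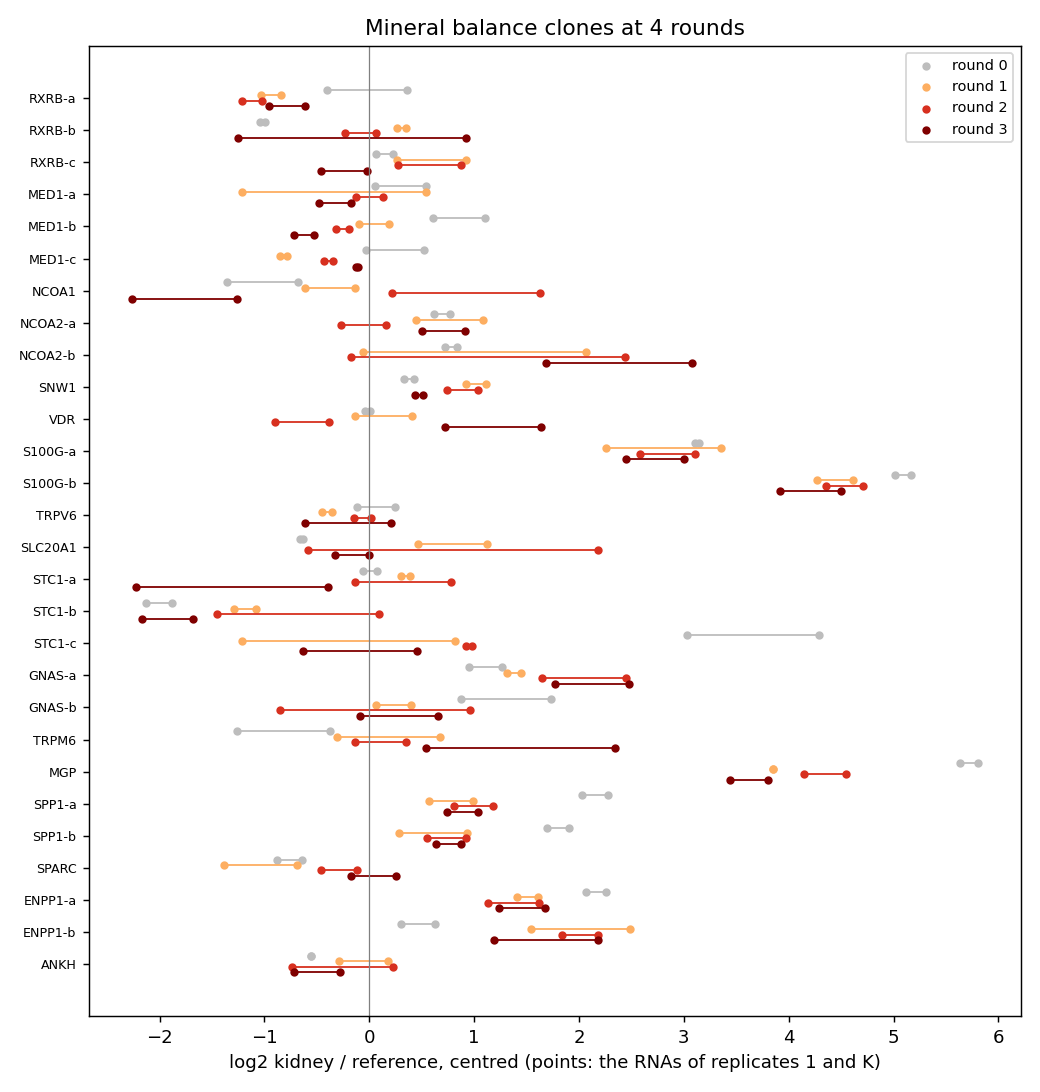
Centred log2 kidney over reference ratio (horizontal axis) of the 28 features of the 6 mineral balance lists, 1 row per clone, with points for the RNAs of replicates 1 and K joined by a line, coloured by round. The amplified rounds of MGP, both SPP1 clones and STC1-c lie to the left of round 0, as do those of S100G-b, ENPP1-a, MED1-b, MED1-c and RXRB-a. Those of ENPP1-b, GNAS-a, SLC20A1, SNW1 and TRPM6 lie to the right of round 0. The share of all features that do either was not counted. Both S100G clones stay far to the right of 0.

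The features whose ratios followed each clone most closely were ranked by Pearson r over the 8 RNAs, among 5443 features, as a description: all values share arrays and the common reference. For S100G-b these were WDR43 (0.979), RPL22 (0.976) and DBI (0.970), and 66 features exceeded 0.9. For S100G-a they were RPL34-a (0.941), H2BC21 (0.938) and RPS20 (0.932), with 18 features over 0.9.

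VDR was nearest to NUDT16L1-a (0.908), the 1 feature over 0.9, then KLHL15 (0.852) and C3H1orf52 (0.851). STC1-c was nearest to RRAS (0.956), RASSF1 (0.936) and MAPRE1 (0.928). STC1-a was nearest to TUBD1 (0.959), MKRN2-b (0.953) and RALA-b (0.948), and STC1-b to MAPK8IP3 (0.970), POLA2 (0.968) and PITPNM2-b (0.967). The nearest features of the 3 STC1 clones were different genes in each case.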

How the data were processed

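Values were the deposited log2 ratios of 16 arrays in 2 colours. How the authors scaled or background-corrected them, and in which direction the ratios run, is not stated in the labels or headers. The Cy3 array of replicate 1 at round 1 ends, as deposited, in a run of 69 whole numbers, 52 of them beyond 10 in size. That run was handled as a score and left out. What the authors did to make these score values before they were deposited is not stated. The rest of that array was handled as log2 ratios, like the other arrays. Readings beyond 10 in size, among them the code 16.61, were taken as missing. The sign of arrays with kidney in Cy3 was turned, the median of the features with a listed gene was subtracted from each array, and duplicate spots and then dye swaps were averaged, giving 8 RNAs. No intensities were used, so the number of arrays limits the precision.

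The fit used limma 3.58.1 under R 4.3.3 (round as a factor, 4 residual degrees of freedom), with Benjamini-Hochberg adjustment over 5537 features at 0.05, after a test on simulated data. An exact permutation test of 2 RNAs against 2 cannot go below p = 0.333. Genes are those of the array's probe annotation. Clones of a gene were kept apart. Named genes were all clones of S100G, VDR and STC1, the called falls and rises of each list (at most 2 each way, or the first gene in the alphabet measured at most rounds where none was called), other clones of such genes, and the 3 nearest features of each clone. RXRB, ENPP1, SNW1, the S100 relatives and the tissue markers were named beyond that rule, after their values were seen. The genes and lists were chosen with earlier results of these data known. The alternatives tried are given with their effect in the closing section.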

Additional observations from a re-analysis of the deposited data

Results flagged for a closer look

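Among 20 groups of 4 arrays (a clone at a round), 2 held an array far from the other 3 by Dixon's test, and chance gives about 1 in 20. For S100G-b at round 1, the array of replicate K with kidney in Cy3 stood at 3.95, and the other 3 at 4.58 to 4.61. For STC1-b at round 2, the array of replicate 1 with kidney in Cy5 stood at 1.58, and the other 3 at -1.69 to -1.22. That STC1-b value is the mean of spots that read 3.99 and -0.83. The cause of either was not tested.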

How the results depend on the processing

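Under 20 other settings, 1025 of 1150 clone values kept their direction and their side of the threshold, 36 lost a call, 13 gained one, 2 reversed and 74 changed sign without a call in either fit. The S100G calls against the reference held in every setting in which the clone could be fitted. Clones called against the reference numbered 13 of 24 tests, and 10 to 14 under the alternatives. Some alternatives had fewer tests: 10 of 20 with only the Cy5 arrays, 10 of 16 with only the Cy3 arrays and 12 of 16 with second spots only. Against round 0 there were 2 calls of 18 tests, both of STC1-c. These were 3 with arrays scaled to 1 median absolute deviation, 3 with 16 arrays and a dye term, 3 with only the Cy5 arrays (15 tests), 1 with no centring, 1 with the replicate block (the round 1 call in both), 0 with only the rounds compared in the fit, 0 with first spots only, 0 with second spots only (12 tests), 0 with only the Cy3 arrays (12 tests) and 0 to 3 without one RNA. Between amplified rounds the count was 0 in every setting run. The reversed ratio was that of VDR against the reference at round 3, -0.074 with only the Cy5 arrays and -0.023 with second spots only. The mineral balance lists had 63 calls of 280 tests, 41 with first spots only and 41 to 55 without one RNA. For the lists, the count with first spots only was out of 260 tests. The list counts pool 10 comparisons that differ in how many of all features were called. These shares were 35.1 to 38.7% against the reference, 11.2 to 13.3% against round 0 and 0 to 0.289% between amplified rounds. Whether the lists exceed them was not tested. Replicate numbers were not shown to pair the RNAs, since 1 of 6 pairs of rounds had a correlation of deviations over 0.1 (-0.05 to 0.17).

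Over all features, 736, 620 and 648 were called against round 0 at rounds 1, 2 and 3. With no centring these were 1870, 67 and 130, with the median feature 1.04, 0.08 and 0.34 lower than at round 0, and at round 1 the split was 39 higher and 1831 lower, beside 300 and 436. With 16 arrays and a dye term, where the 2 arrays of an RNA count as separate units, they were 1127, 1099 and 1168. With only the rounds compared they were 2, 148 and 257. The cause was not tested. With 2 RNAs a round, few spots for VDR and STC1-c limit what can be told.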
